A study of Mus musculus with 10 samples.

Results

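At 933 promoter sites in mouse erythroid cells, a peak of the repressor KLF3 and a peak of the activator KLF1 covered the same DNA. The sites were chosen by the authors' annotation and by overlap: a KLF3 peak that the authors classed as promoter was taken when it shared at least 1 bp with any peak of the KLF1 list. They make up 933 of the 3043 KLF3 promoter peaks (30.7%, exact 95% binomial interval 29.0 to 32.3) among 4579 KLF3 peaks in all, and they met 923 of the 3800 KLF1 peaks. The other 2110 KLF3 promoter peaks had no KLF1 peak on them. Of the 1200 KLF1 promoter peaks, 875 (72.9%) had a KLF3 peak of any class on them and 325 had none.

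KLF1 and KLF3 belong to the Krüppel-like family, whose zinc fingers bind CACCC boxes and related GC-rich elements. KLF1 is the family's erythroid activator and is known for switching on globin, membrane and heme synthesis genes. KLF3 recruits C-terminal binding protein corepressors and is known as a repressor, and since both proteins read similar elements they have long been discussed as competitors for the same promoters.

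Labelled RNA was taken from J2E-KLF3-ER cells (3 libraries, clones A, C and E, given 200 nM 4-hydroxytamoxifen) and from the parent J2E line (3 libraries, of which 2 had 200 nM 4-hydroxytamoxifen and the third vehicle). J2E is an immortalised mouse erythroid line, and J2E-KLF3-ER adds KLF3 joined to an estrogen receptor domain that the drug activates. Cells took up 500 µM 4-thiouridine for 30 minutes, so that the RNA is mostly newly made, and no library of J2E-KLF3-ER cells without the drug is among the samples. KLF3 chromatin came from J2E-KLF3-ER clone C with an antibody to the estrogen receptor, and KLF1 chromatin from clones A and C of K1-ER, a line of erythroblasts without Klf1 that carries KLF1 joined to the same kind of domain, with an antibody to KLF1. Both were induced for 3 hours at 200 nM, fixed with 0.4% formaldehyde and cut to 200 to 400 bp, each immunoprecipitate had an input, and each library pooled 3 replicates. The factor, the line and the antibody all change between the lists, and each list rests on 1 library, so no site has an error across replicates.

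The authors' deposited table gave Klf3 179.9 FPKM in J2E-KLF3-ER and 7.46 FPKM in J2E, and it gave Esr1, whose reads can include the fusion's receptor part, 62.4 FPKM in J2E-KLF3-ER and 14.7 FPKM in J2E (FPKM is a level scaled to transcript length and library size). Klf1 itself was lower, at 55.6 FPKM in J2E-KLF3-ER and 122 FPKM in J2E (log2 fold change -1.14, authors' deposited table, q = 0.00408), so less message of the endogenous activator moved together with the KLF3 fusion in every RNA value below, and its part in them was not tested. Of 10 erythroid marker rows of the authors' deposited table, 10 reached 1 FPKM in J2E-KLF3-ER and 9 in J2E, with summed levels of 412 FPKM in J2E-KLF3-ER and 572 FPKM in J2E. Of 15 marker rows of other blood cells in the authors' deposited table, 6 reached 1 FPKM in J2E-KLF3-ER and 7 in J2E (sums of 199.7 FPKM in J2E-KLF3-ER and 188 FPKM in J2E), mostly Pf4, Itga2b and Csf1r, while Cd3e, Cebpa, Cd34 and Flt3 stayed under 1 FPKM in both. The megakaryocyte-type genes Pf4 and Itga2b thus stood beside the erythroid ones in both lines, and the part of other cell markers in the results was not tested.

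The promoters below are some of those of sites with the highest enrichment or of genes that changed, and they let the KLF-type element be read against the summits. Each is the RefSeq window (GRCm38.p6) from 250 bases before to 50 bases after the start, 5′ to 3′ on the gene's strand. Capitals mark CCNCNCCC or its reverse complement, and the start site is at base 251. The first 3 belong to genes among the 10 highest KLF3 enrichments and lie at chr15:81858277-81858576 (minus strand) for Tob2, chr11:49846501-49846800 (plus strand) for Mapk9 and chr19:8713848-8714147 (minus strand) for Slc3a2.
Tob2: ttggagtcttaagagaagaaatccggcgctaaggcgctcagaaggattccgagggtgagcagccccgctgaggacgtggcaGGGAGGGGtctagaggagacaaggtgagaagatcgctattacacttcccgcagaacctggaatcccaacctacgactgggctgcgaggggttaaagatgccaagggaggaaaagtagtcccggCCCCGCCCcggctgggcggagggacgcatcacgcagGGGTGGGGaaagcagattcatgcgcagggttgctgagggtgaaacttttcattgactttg
Mapk9: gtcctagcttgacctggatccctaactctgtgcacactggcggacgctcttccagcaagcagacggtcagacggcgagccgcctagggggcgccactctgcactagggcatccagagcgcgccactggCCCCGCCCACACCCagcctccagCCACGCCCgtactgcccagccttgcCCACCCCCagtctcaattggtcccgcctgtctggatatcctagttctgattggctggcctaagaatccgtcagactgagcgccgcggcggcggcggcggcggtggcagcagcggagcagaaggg
Slc3a2: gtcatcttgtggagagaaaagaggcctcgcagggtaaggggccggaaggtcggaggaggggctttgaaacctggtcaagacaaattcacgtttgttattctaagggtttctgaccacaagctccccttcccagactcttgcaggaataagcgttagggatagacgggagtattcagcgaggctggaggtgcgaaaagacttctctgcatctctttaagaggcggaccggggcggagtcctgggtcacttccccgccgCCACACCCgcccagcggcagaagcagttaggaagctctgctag

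By the authors' distance to the start, the KLF3 summit fell at base 208 of the Tob2 window, inside the run of capitals that starts at base 205, and the KLF1 summit at base 199, just before it. In Mapk9 the KLF3 summit, at base 157, fell within the run that starts at base 152 and the KLF1 summit, at base 164, just past it, and a further pair of overlapping matches starts at bases 129 and 135. The single match of Slc3a2, a full CCACACCC at base 258, lay between the KLF1 summit at base 256 and the KLF3 summit at base 276. Places in these windows assume that RefSeq and the authors used the same start.

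The other 4 windows belong to genes whose labelled RNA was lower in J2E-KLF3-ER: Zfp28 at chr7:6383068-6383367 (plus strand), Mid1ip1 at chrX:10717115-10717414 (plus strand), Sertad1 at chr7:27486703-27487002 (plus strand) and Btg2 at chr1:134079106-134079405 (minus strand), all in GRCm38.p6.
Zfp28: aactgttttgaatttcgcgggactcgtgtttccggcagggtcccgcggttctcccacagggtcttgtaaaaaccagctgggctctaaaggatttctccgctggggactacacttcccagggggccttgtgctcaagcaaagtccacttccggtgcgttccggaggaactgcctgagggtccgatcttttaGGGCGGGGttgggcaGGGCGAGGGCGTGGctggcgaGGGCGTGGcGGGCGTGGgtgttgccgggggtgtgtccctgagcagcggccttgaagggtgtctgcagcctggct
Mid1ip1: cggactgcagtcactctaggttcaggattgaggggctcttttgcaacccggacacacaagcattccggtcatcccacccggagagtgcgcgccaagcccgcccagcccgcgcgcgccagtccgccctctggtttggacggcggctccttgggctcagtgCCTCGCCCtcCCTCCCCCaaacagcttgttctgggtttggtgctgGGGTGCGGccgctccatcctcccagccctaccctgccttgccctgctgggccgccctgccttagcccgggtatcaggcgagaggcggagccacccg
Sertad1: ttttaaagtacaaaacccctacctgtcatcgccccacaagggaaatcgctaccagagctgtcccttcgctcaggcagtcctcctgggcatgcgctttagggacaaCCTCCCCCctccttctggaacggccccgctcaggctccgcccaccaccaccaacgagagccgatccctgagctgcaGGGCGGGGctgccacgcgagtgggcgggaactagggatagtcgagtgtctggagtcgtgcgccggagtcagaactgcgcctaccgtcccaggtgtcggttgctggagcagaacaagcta
Btg2: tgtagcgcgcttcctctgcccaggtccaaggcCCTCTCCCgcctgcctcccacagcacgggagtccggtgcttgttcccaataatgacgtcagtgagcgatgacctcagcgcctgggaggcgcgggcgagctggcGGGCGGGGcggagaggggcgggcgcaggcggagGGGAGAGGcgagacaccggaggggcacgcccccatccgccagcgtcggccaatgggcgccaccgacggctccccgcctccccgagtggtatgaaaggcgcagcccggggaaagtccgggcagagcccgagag

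Zfp28 carried 5 matches, starting between bases 191 and 236, with the KLF3 summit at base 217 and the KLF1 summit at base 232, inside the cluster. In Btg2 the KLF3 summit at base 140 lay in the match that starts at base 136, while the KLF1 summit, at base 66, lay 74 bp upstream and on no match. Mid1ip1 and Sertad1 were looser: the nearest match centre was 55 bp from the KLF3 summit in Mid1ip1 and 20 bp in Sertad1. Windows of Serac1, Myh9, Rpl31, Mesdc1 and Trib3 also qualified and are not printed. Their nearest match centres lay 17, 11, 62, 34 and 59 bp from the KLF3 summit. The printed windows therefore do not show how often a match lies at the summit.

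Shared sites stood high in the KLF3 list. Enrichment, the authors' fold value for each peak, had a median of 10.7 at the 933 shared sites (quartiles 7.30 and 15.6) and of 7.89 at the 2110 KLF3 promoter peaks without KLF1 (quartiles 6.25 and 10.7). Among the shared sites 386 (41.4%) ranked in the first 1000 of the KLF3 list, against 419 (19.9%) of those without KLF1. The KLF1 peaks at shared sites had a median enrichment of 10.8 (quartiles 7.77 and 18.1), against 9.63 at KLF1 promoter peaks without KLF3. KLF3 peaks at shared sites were also wider, with a median of 363 bp, against 272 bp without KLF1; width bears on overlap, and its part in the choice was not tested. Peak calling and overlap chose these groups, so the values describe them and no test was made.

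The ranking of a site by one factor was only loosely related to its ranking by the other. Across the 933 sites, which share 1 library per factor, Spearman's rho between the enrichments was 0.19 and Pearson's r on the log2 scale 0.20. Of the 100 shared sites highest for KLF3, 14 were among the 100 highest for KLF1. Those 100 are drawn from 933 shared sites, so some overlap would arise with no relation, and the count was not tested against that share.

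**Figure D1:**
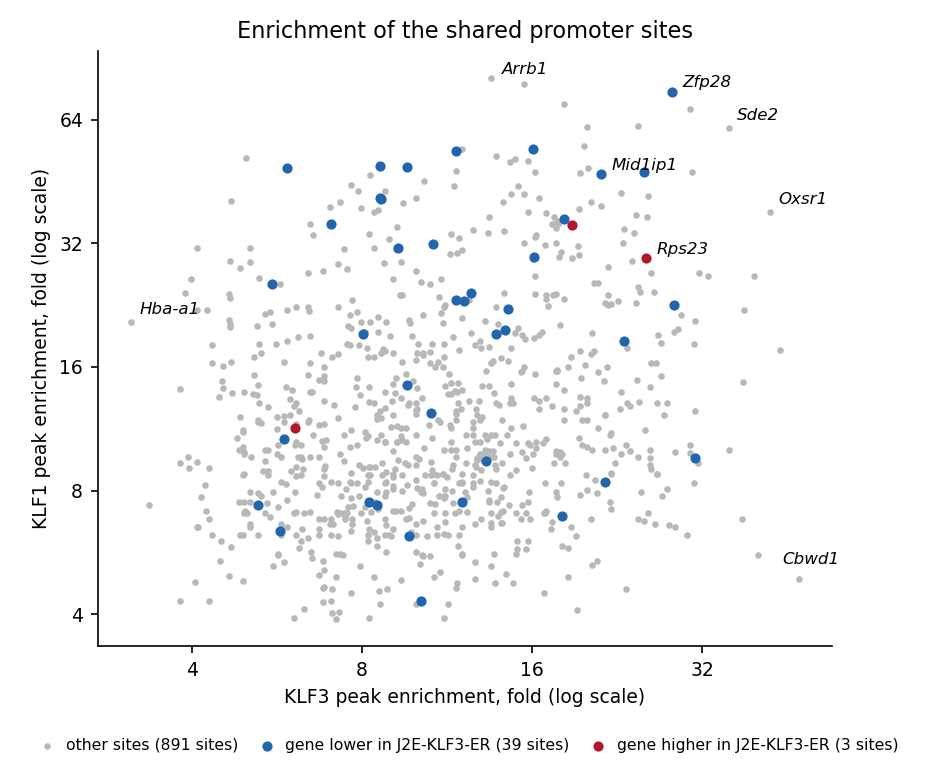
Each point is 1 of the 933 shared sites, by KLF3 enrichment (horizontal, fold, log scale) and KLF1 enrichment (vertical, fold, log scale); blue and red mark the sites of genes called lower and higher in J2E-KLF3-ER, and grey the rest. The cloud is nearly round (rho 0.19), and the blue points lie mostly in its upper part, at high KLF1 enrichment.

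The site highest for KLF3 was that of Cbwd1 (chr19:25036004-25036454, mm9), a zinc metallochaperone gene, at 47.5-fold, and its KLF1 peak was among the lowest, at 4.88-fold. Hnrpll, which encodes a splicing regulator, had 40.1-fold KLF3 and 5.56-fold KLF1 with both summits on the same base, and Mapk9, the gene of a stress-activated kinase, 37.6-fold and 6.82-fold. Others were high for both. Oxsr1, a kinase gene of the cation cotransporter pathway, had 42.2-fold KLF3 and 38.0-fold KLF1, and Brpf1 (chr6:113256389-113257074, mm9), a scaffold of a histone acetyltransferase complex, 39.5-fold and 26.6-fold with summits 1 bp apart. Ppp1r15b, a regulator of the eIF2 alpha phosphatase, had 44.0-fold KLF3 and 17.6-fold KLF1. Tob2, Serac1 and Slc3a2 (the CD98 heavy chain) had 38.0-fold, 37.8-fold and 35.7-fold KLF3 with 22.0-fold, 14.7-fold and 10.1-fold KLF1. The only site in the first 10 of both rankings was that of Sde2, a genome maintenance factor (chr1:182780817-182781239, mm9), at 35.7-fold KLF3 and 60.96-fold KLF1.

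The highest KLF1 value at a shared site was 80.9-fold at Arrb1, the gene of a beta-arrestin (chr7:106683433-106683774, mm9), where the KLF3 value was 13.5-fold and the summits were 1 bp apart. Snx22, a sorting nexin gene, followed at 78.2-fold KLF1 and 15.5-fold KLF3. Zfp28, a KRAB zinc finger gene (chr7:6335814-6336208, mm9), had 74.9-fold KLF1 and 28.3-fold KLF3. The others of the first 10 lay between 54.3-fold and 69.7-fold for KLF1: the kinase gene Pim1, the non-muscle myosin gene Myh9, Tmem123, the zinc finger gene Zfp367, Sde2, the ribosomal protein gene Rpl31 and Ankrd10. In the authors' K1vsK1ER column, described further on, 6 of these 10 KLF1 leaders were marked up, against 1 of the 10 KLF3 leaders. The share marked up was 16.2% of genes with a shared site assigned the same gene in both lists. It was 14.0% of the nearest genes of all KLF1 peaks. Of the 10 KLF1 leaders, 2 were called in the authors' deposited table at q below 0.05 (Zfp28 and Ankrd10, both lower in J2E-KLF3-ER), and of the 10 KLF3 leaders 0. Over all tested genes that table called 1.90% lower and 0.821% higher. At an unadjusted p below 0.05 it had 3 of the 10 KLF1 leaders, all lower, and 0 of the 10 KLF3 leaders. The share of all tested genes under that p was not counted.

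The summits lay close together, though the choice of sites itself favours short distances. The peaks had to overlap, and where several KLF1 peaks met a site the nearest summit was taken. How much of the closeness this fixed was not tested. The KLF1 summit was a median of 28 bp from the KLF3 summit (quartiles 12 and 63), and the distance was at most 10 bp at 205 sites (22.0%), at most 50 bp at 646 (69.2%) and at most 100 bp at 784 (84.0%). At 14 sites the summits fell on the same base, and the farthest were 801 bp apart. The KLF1 summit lay upstream of the KLF3 summit along the gene at 551 sites and downstream at 368, with a signed median of -9 bp. Sites with closer summits had higher KLF3 enrichment: the median was 12.3 within 20 bp (383 sites), 11.01 from 21 to 50 bp (263 sites), 9.66 from 51 to 100 bp (138 sites) and 7.97 beyond (149 sites). KLF1 enrichment over the same 4 bins had medians of 11.5, 11.5, 10.4 and 9.40. Peak width moved with the distance, with a median of 514 bp for KLF3 peaks beyond 100 bp and 342 bp within 20 bp, and its part was not tested. The bins count listed rows, of which 173 lie on an interval listed more than once, and the part of these repeats was not tested either.

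Most shared sites sat just upstream of a start. The KLF3 summit was a median of 95 bp from the nearest start (quartiles 46 and 213), against 82 bp at KLF3 promoter peaks without KLF1 and 169 bp at KLF1 promoter peaks without KLF3. It was upstream at 793 of 933 sites (85.0%), against 83.2% and 84.6% in those groups, and within 100 bp of the start at 52.3%, against 59.0% and 36.3%. At the same 933 sites the KLF1 summit lay at a median of 132 bp from the start, so by either summit the shared sites stood between the KLF3 and the KLF1 promoter peaks that were not shared.

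**Figure D2:**
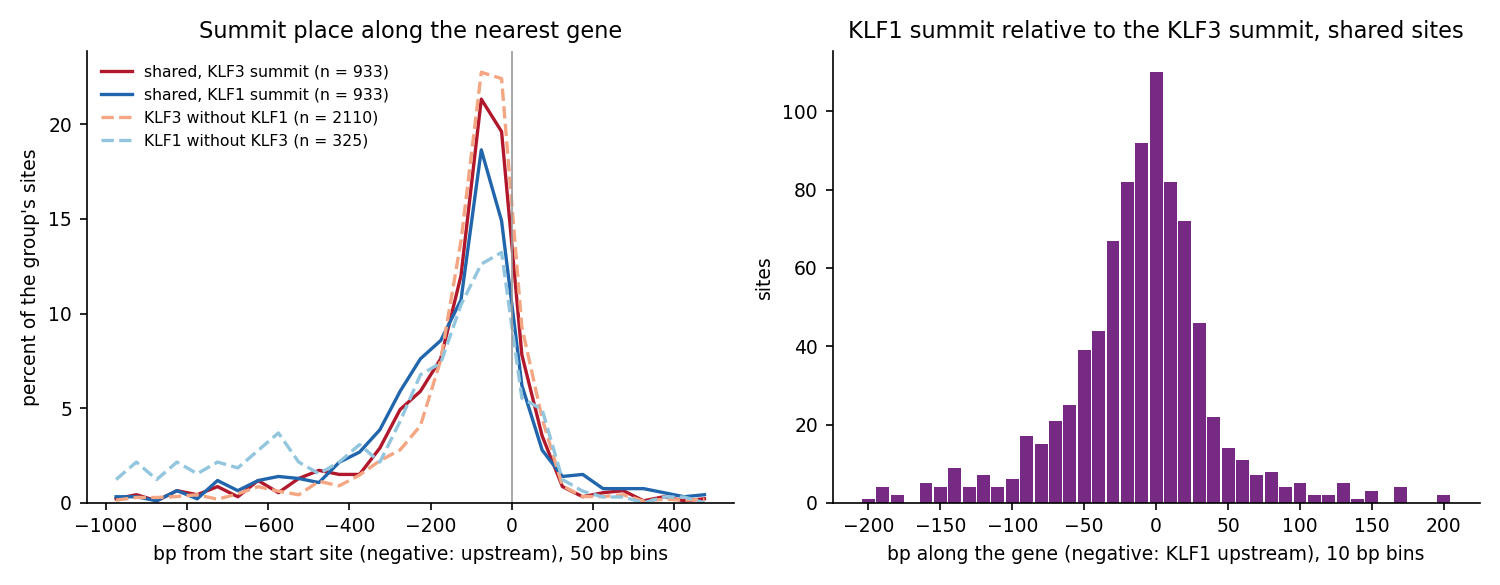
Left, the share of each group's sites (percent) by summit place relative to the start site (bp, 50 bp bins) for shared sites by KLF3 and KLF1 summit and for promoter peaks of either factor alone; right, the number of shared sites by the place of the KLF1 summit relative to the KLF3 summit (bp, 10 bp bins, 848 of 933 sites shown). The curves peak just upstream of the start, with a tail of KLF1 peaks without KLF3 farther upstream, and the bars centre near 0 with more sites on the upstream side.

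The 933 sites cover 842 distinct intervals, because the authors listed 82 intervals more than once, each time with another summit. Their nearest genes number 841, of which 16 have at least 2 distinct intervals. A single KLF1 peak met 818 of the sites, and 2 to 4 met the others. The nearest KLF1 peak had the same gene at 914 sites (98.0%). The overlap was rarely marginal, with a median of 279 bp. The smallest overlaps were 51 bp at Lnx2, 65 bp at D830031N03Rik, 112 bp at Mef2a and 116 bp at Armc6. Just outside the rule were the KLF3 promoter peaks of Ccng2, 66 bp from the nearest KLF1 peak, Rbck1 (186 bp), Zbed4 (193 bp), Pdcd2l (205 bp) and Fzd5 (211 bp).

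A RefSeq promoter window was found for 690 of the 841 genes (82.0%) and for 82.6% of the genes with KLF3 promoter peaks alone. Only 75.1% of the genes with KLF1 promoter peaks alone had one, too few for a comparison, so none is given for them. Each motif was searched on both strands in each gene's first listed window. CCNCNCCC occurred in 616 of 690 windows (89.3%, exact interval 86.7 to 91.5), against 84.4% (82.5 to 86.1) of 1656 windows with KLF3 alone and 49.1% of all 27025 promoters. Shared windows held a mean of 3.26 matches and 53.8% of them at least 3, against 2.58 and 43.1% with KLF3 alone and 1.34 and 18.8% over all promoters. The windows are GC-rich, at a median of 65.3% GC, against 64.3% with KLF3 alone and 52.7% over all promoters. Among windows of 60 to 70% GC the shares were 93.3% of shared windows, 88.7% with KLF3 alone and 79.6% of all promoters. At 50 to 60% GC they were 78.4%, 74.6% and 54.5%, and at 70 to 80% GC 94.4% (89.7 to 97.4), 93.1% and 90.9%, where the groups came close together.

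Other forms of the element were counted in the same windows. The core CACCC, which lies inside the longer CCACACCC, was in 73.9% of shared windows, against 67.9% with KLF3 alone and 56.7% of all promoters. At 50 to 60% GC it was in 70.5% of shared windows (62.2 to 77.9), 68.2% with KLF3 alone (63.3 to 72.8) and 64.8% of all promoters. At 60 to 70% GC it was in 76.4% (71.7 to 80.7), 67.7% (64.4 to 70.8) and 69.4%, and at 70 to 80% GC in 71.4%, 71.6% and 71.2%. Shared windows were thus highest at 60 to 70% GC. At 50 to 60% GC the intervals of shared windows and of KLF3 alone overlapped, and the groups came close together at 70 to 80%. The order of the other groups changed between bands. CCACACCC, a case of CCNCNCCC and the form of the element in the adult beta-globin promoter, was in 7.25%, against 5.01% and 3.57%. In 3 equal groups of 230 shared windows by KLF3 enrichment, low to high, it was in 4.35%, 6.09% and 11.3%, with exact intervals of 2.10 to 7.85 in the lowest and 7.52 to 16.1 in the highest. In 3 such groups by KLF1 enrichment it was in 6.09%, 9.13% and 6.52%, with no such order. CCGCCC, the GC box core, whose matches can share bases with those of CCNCNCCC, was in 87.7%, against 85.3% and 35.9%. For 2 elements of other factors the shared windows were below those with KLF3 alone: CCAAT was in 34.3%, against 39.4% with KLF3 alone and 37.9% of all promoters, and the ETS core CCGGAAG in 17.97%, against 21.3% and 9.12%. AGATAA, which GATA factors bind, was in 5.94% of shared windows, against 3.86% with KLF3 alone and 11.4% of all promoters, and TATAAA in 5.22%, against 4.41% and 14.2%. A match is a run of letters and not a shown binding site.

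CCNCNCCC was more frequent at the summits than upstream of them. In genes with 1 window that holds the KLF3 summit, a CCNCNCCC centre lay in the 20 bp bin on the summit in 29.1% of 422 shared windows, against 15.4% of the 357 that reach the bin centred 100 bp upstream and 20.97% of the 248 that reach the bin 100 bp downstream. Around the KLF1 summit of shared sites the share was highest one bin downstream, at 30.8%, with 24.9% on the summit (20.6 to 29.7), 10.5% in the bin 100 bp upstream and 21.5% (16.3 to 27.4) in the bin 100 bp downstream, so the downstream side was not clearly lower. With KLF3 alone it was 25.02% on the summit, 9.10% in the bin 100 bp upstream and 15.8% in the bin 100 bp downstream. The shorter CACCC showed no clear peak at the KLF3 summit of shared sites. It was in 10.4% on the summit and 12.7% (9.60 to 16.3) in the bin 20 bp downstream. The bins 100 bp upstream and downstream had 8.40% (5.74 to 11.8) and 8.06% (5.00 to 12.2), and those 60 bp upstream and 80 bp downstream 10.5% and 10.1%. Around the KLF1 summit CACCC was in 13.2% on the summit (9.86 to 17.1). It was in 6.86% in the bin 100 bp upstream (4.18 to 10.5) and 10.5% in the bin 100 bp downstream (6.86 to 15.3). Within 50 bases of the KLF3 summit, 77.2% of 360 shared windows held a CCNCNCCC match (exact interval 72.5 to 81.5), against 69.1% of 923 windows with KLF3 alone (66.0 to 72.1).

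**Figure D3:**
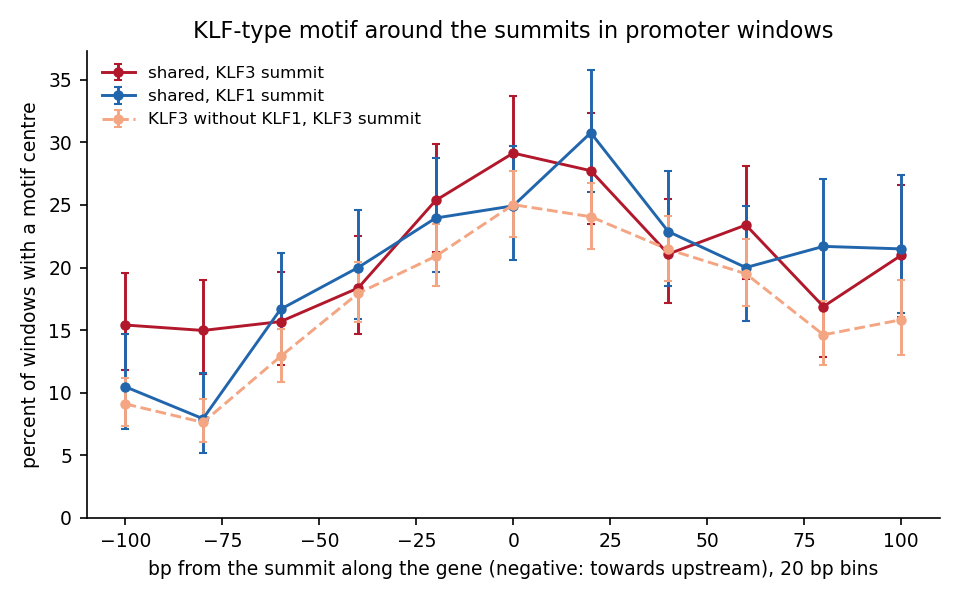
Points are the share of promoter windows (percent) with the centre of a KLF-type motif in each 20 bp bin around the summit (bp along the gene), for shared sites by KLF3 and by KLF1 summit and for sites with KLF3 alone; bars are exact 95% binomial intervals. Each curve is highest on the summit or one bin downstream and lowest in the bin 80 bp upstream.

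Genes with a shared promoter site were called lower in J2E-KLF3-ER more often than higher. All 841 genes have a row in the authors' deposited table, and 709 were tested there (132 were not, and had a median of 1.01 FPKM in J2E-KLF3-ER and 1.21 FPKM in J2E, both in the authors' deposited table). At the authors' q below 0.05 the authors' deposited table called 33 of the 709 lower (4.65%, exact interval 3.23 to 6.47), against a background of 1.90% of all 9619 tested genes. It called 3 of the 709 higher (0.423%, 0.0873 to 1.23), against a background of 0.821%. The authors' deposited table called 29 of 1739 genes with KLF3 promoter peaks alone lower (1.67%, 1.12 to 2.39) and 9 higher, 8 of 140 genes with KLF1 promoter peaks alone lower (5.71%, 2.5 to 10.9) and 1 higher, and 77 of 5922 genes with no peak lower (1.30%) and 59 higher. A gene without a shared site that had separate promoter peaks of both factors was counted with KLF3 alone, here and for the windows above. Of the 2110 KLF3 promoter peaks without KLF1, 94 had a KLF1 peak within 1000 bp. The shares called lower at genes with a shared site and at genes with KLF1 alone had overlapping intervals. The share at genes with KLF3 alone was near the background, and the differences between these shares were not tested. In bulk RNA, fewer cells of a type and less RNA per cell cannot be told apart.

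**Figure D4:**
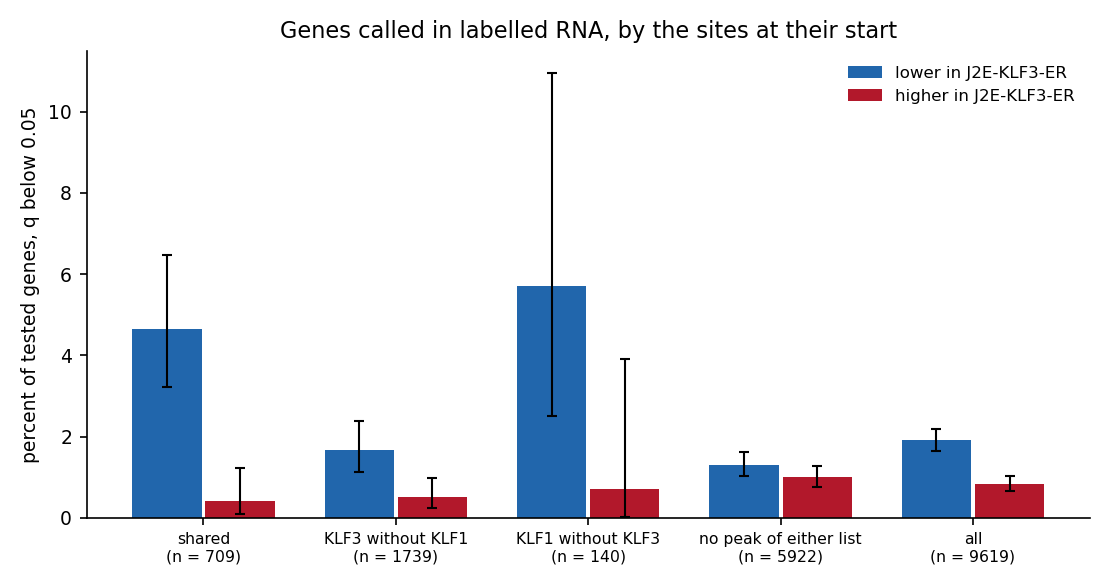
Bars give the percent of tested genes that the authors' deposited table calls lower (blue) or higher (red) in J2E-KLF3-ER at q below 0.05, by the sites at their start; error bars are exact 95% binomial intervals over genes. The blue bars of the groups with a KLF1 promoter peak (4.65% shared, 5.71% KLF1 without KLF3) stand above the others, with a wide interval for the smaller group.

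The lean was small for the typical gene. In the authors' deposited table the 709 genes had a median log2 fold change of -0.10 (quartiles -0.32 and 0.10), against 0.03 over all tested genes, 0.02 with KLF3 alone and -0.15 with KLF1 alone. Of the 709, the authors' deposited table places 448 (63.2%) below 0, against 46.6% of all tested genes. Their median level was 12.9 FPKM in J2E-KLF3-ER and 14.2 FPKM in J2E, and that of all tested genes, again in the authors' deposited table, was 12.6 FPKM in J2E-KLF3-ER and 12.4 FPKM in J2E. The chromosomes were split by their numbers into sets that were set by rule and not found in the data. On chromosomes 1 and 10 to 19 the authors' deposited table gave medians of 0.014 for genes of shared sites and 0.11 for all tested genes. On chromosomes 2 to 9 and X it gave -0.18 and -0.03, so the sets also differed for all tested genes. The genes of shared sites lay below all tested genes in both sets, and the authors' deposited table called 9 of 335 (2.69%) and 24 of 374 (6.42%) of them lower, against 1.6% and 2.19% of all tested genes.

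The lower genes lay mostly at sites of high KLF1 enrichment. In 3 groups of shared sites by KLF1 enrichment, low to high, the authors' deposited table called 2.52%, 1.67% and 9.91% of the genes lower (6 of 238, 4 of 239 and 23 of 232, the last with an exact interval of 6.39 to 14.5), and in 3 groups by KLF3 enrichment 3.60%, 5.06% and 5.2% (8 of 222, 12 of 237 and 13 of 250). The sites of the 33 lower genes had a median KLF1 enrichment of 23.3, against 10.6 at the 673 genes tested and not called, and a median KLF3 enrichment of 12.04, against 11.7; these differences were not tested. By summit distance the shares lay close together: the authors' deposited table called lower 5.03% of genes with summits within 20 bp, 4.31% from 21 to 50 bp and 4.46% beyond 50 bp. The KLF3 summit was upstream of the start at 28 of the 33 lower genes and at 574 of the 673 not called, and within 250 bp of it at 30 and at 553.

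The authors' KLF1 list marks each nearest gene as up, down or neither in a comparison its header calls K1vsK1ER, whose libraries were not analysed here and whose direction is read only from that header. Of 823 genes with a shared site assigned the same gene in both lists, 133 were marked up (16.2%, 13.7 to 18.9), against a background of 14.0% of the 2773 nearest genes of all KLF1 peaks, and 2 were marked down, against a background of 0.577%. That background mixes promoter peaks with others: the share was 19.9% over all KLF1 promoter peaks, above the interval at shared sites, and 9.98% over genes with KLF1 peaks outside promoters only. At KLF1 promoter peaks without KLF3 it was 29.6% (24.4 to 35.2); the differences were not tested. It grew with KLF1 enrichment, at 8.03%, 12.8% and 27.6% in 3 groups from low to high, and stood at 17.9%, 15.3% and 15.3% in 3 groups by KLF3 enrichment. Among tested genes with a shared site and marked up, the authors' deposited table called 16 of 114 lower in J2E-KLF3-ER (14.0%, 8.24 to 21.8), with a median log2 fold change of -0.28, against 17 of 581 (2.93%, 1.71 to 4.64) and -0.08 among those marked neither way. These comparisons come from separate libraries, and the difference between the 14.0% and the 2.93% was not tested.

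The 33 lower genes ranged from a log2 fold change of -1.81 to -0.53 in the authors' deposited table, with a median of -0.92. Mid1ip1, which encodes a regulator of acetyl-CoA carboxylase, changed most, at 2.51 FPKM in J2E-KLF3-ER and 8.81 FPKM in J2E in the authors' deposited table (log2 fold change -1.81, q = 0.00408); its promoter site (chrX:10294256-10294659, mm9), whose window is printed above, had 21.2-fold KLF3 and 47.2-fold KLF1 with summits 6 bp apart. Kcnn4, the calcium-activated potassium channel of red cells, was at 19.5 FPKM in J2E-KLF3-ER and 53.6 FPKM in J2E (-1.46, authors' deposited table, q = 0.00408), with a site at chr7:25155035-25155497 (mm9) of 5.53-fold KLF3 and 25.5-fold KLF1. Each value is 1 pooled figure per line, so no spread between libraries can be shown.

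Others of the largest changes were at genes of varied roles. Sertad1, a cofactor of E2F proteins, was at 14.8 FPKM in J2E-KLF3-ER and 41.8 FPKM in J2E in the authors' deposited table (-1.50, q = 0.00408). Eif4ebp1, an inhibitor of translation initiation, was at 22.9 FPKM in J2E-KLF3-ER and 53.8 FPKM in J2E in the authors' deposited table (-1.23, q = 0.00408). Btg2, an antiproliferative gene, was at 8.20 FPKM in J2E-KLF3-ER and 18.3 FPKM in J2E in the authors' deposited table (-1.16, q = 0.00408). Their sites had 21.5-fold, 12.1-fold and 13.3-fold KLF3 and 8.37-fold, 23.1-fold and 9.46-fold KLF1, so their KLF1 values ran from below the median of shared sites to well above it. Trib3, a pseudokinase gene of the stress response, was at 4.16 FPKM in J2E-KLF3-ER and 9.51 FPKM in J2E in the authors' deposited table (-1.19, q = 0.00707).

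The rest of the 12 largest falls were as follows. The authors' deposited table gave 1810058I24Rik 10.1 FPKM in J2E-KLF3-ER and 29.1 FPKM in J2E (-1.53), and Itpripl1 8.58 FPKM in J2E-KLF3-ER and 19.8 FPKM in J2E (-1.21). Mesdc1, an actin-binding protein gene that RefSeq lists as Tlnrd1, was at 5.98 FPKM in J2E-KLF3-ER and 15.3 FPKM in J2E (-1.35, authors' deposited table). These 3 genes had the lowest q of the table, 0.00408. Zfp28, among the highest for KLF1, stood in the authors' deposited table at 3.09 FPKM in J2E-KLF3-ER and 6.19 FPKM in J2E (-1.0, q = 0.00707). The authors' deposited table gave the ubiquitin ligase gene Fbxo44 4.65 FPKM in J2E-KLF3-ER and 9.75 FPKM in J2E (-1.07, q = 0.0435), and the developmental transcription factor gene Sox12 7.16 FPKM in J2E-KLF3-ER and 14.2 FPKM in J2E (-0.99, q = 0.00408). A further 21 lower genes, at -0.97 to -0.53 in the authors' deposited table, include Junb, Klf16, the polymerase epsilon subunit gene Pole4, the cyclin gene Ccnl1, the spermine oxidase gene Smox, the mitochondrial carrier gene Ucp2, the sphingosine 1-phosphate exporter gene Mfsd2b and the redox sensor gene Keap1.

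The 3 higher genes were Rps23, a ribosomal protein gene, Gapdh and the small nucleolar RNA host gene Gas5. The authors' deposited table gave Rps23 124 FPKM in J2E-KLF3-ER and 62.3 FPKM in J2E (0.99, q = 0.00408), Gapdh 101 FPKM in J2E-KLF3-ER and 62.2 FPKM in J2E (0.70, q = 0.00707) and Gas5 121 FPKM in J2E-KLF3-ER and 83.6 FPKM in J2E (0.53, q = 0.0383). Rps23 and Gapdh have many processed copies in the genome whose reads could have been shared out, so their values are uncertain.

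**Figure D5:**
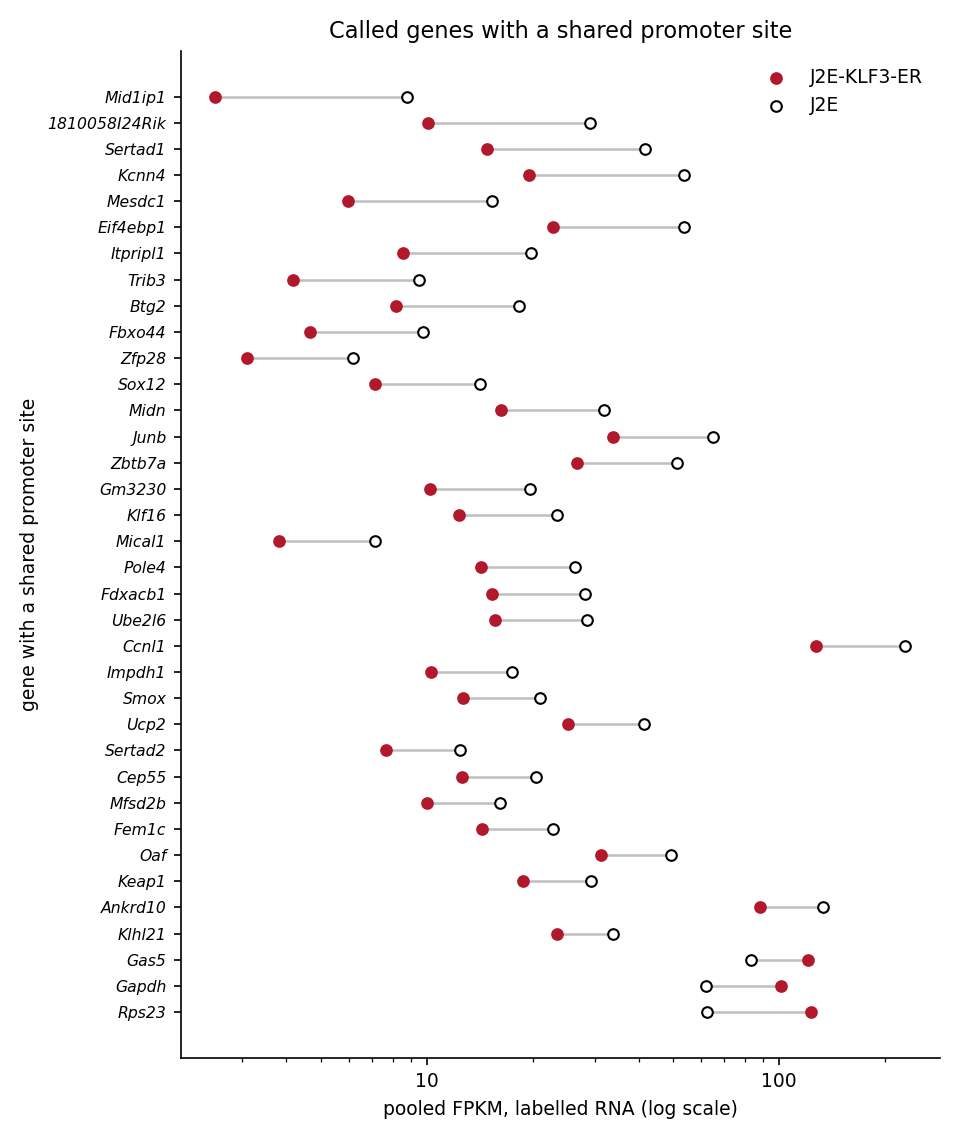
Each line is 1 of the 36 called genes with a shared promoter site, with pooled FPKM (log scale) in J2E-KLF3-ER (filled) and J2E (open), from the authors' deposited table, ordered by log2 fold change. At 33 genes the filled point lies left of the open one and at 3 genes right of it.

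Shared sites were counted in gene groups that KLF1 and KLF3 are known for. Over all named rows of the authors' deposited table, the share with a shared promoter site was 3.61%, and over the tested rows 7.37%. Of 24 erythroid transcription factor genes, 5 had a shared site: the cofactor gene Ldb1 (20.1-fold KLF3, 48.7-fold KLF1), Gata1 (14.6-fold and 50.5-fold), Foxo3 (11.4-fold and 30.1-fold), Zbtb7a (5.82-fold and 10.7-fold) and Lyl1 (3.88-fold and 24.2-fold). Among these 5 only Zbtb7a, a repressor needed for erythroid maturation, was called, at 26.7 FPKM in J2E-KLF3-ER and 51.3 FPKM in J2E in the authors' deposited table (-0.94, q = 0.00408). Gata1 was at 25.2 FPKM in J2E-KLF3-ER and 30.6 FPKM in J2E in the authors' deposited table (-0.28, q = 0.525), and so had strong peaks of both factors and no call.

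Of 24 red cell membrane and cytoskeleton genes, 7 had a shared site. The authors' deposited table called 0 of the 7 at q below 0.05, and 3 of them, all lower, had an unadjusted p below 0.05. The share of all tested genes under that p was not counted, so this count and the later ones at it have no background. The 7 genes had a median log2 fold change of -0.43, against 0.03 over all tested genes. Epb4.9, the dematin gene, had 8.28-fold KLF3 and 46.9-fold KLF1 and stood at 5.07 FPKM in J2E-KLF3-ER and 8.05 FPKM in J2E in the authors' deposited table (-0.67, q = 0.0795). Cd47, the anti-phagocytic receptor gene, stood at 18.4 FPKM in J2E-KLF3-ER and 27.8 FPKM in J2E in the authors' deposited table (-0.60, q = 0.0879). Add1 (adducin) had the highest KLF3 value of the group, 24.1-fold, then Epb4.1 (protein 4.1) with 19.1-fold and Stom (stomatin) with 8.42-fold; the authors' deposited table gave them log2 fold changes of -0.20, -0.10 and -0.45, none called.

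Of 27 heme and iron genes only Fth1, the ferritin heavy chain (22.3-fold KLF3, 10.2-fold KLF1), and Tfr2, a transferrin receptor gene (13.7-fold and 9.65-fold), had a shared site, and neither was called or had an unadjusted p below 0.05 (authors' deposited table, log2 fold changes -0.14 and -0.27). Of 7 globin-related genes 1 had a shared site, Hba-a1, whose KLF3 peak was the weakest of all shared sites at 3.12-fold beside 20.6-fold KLF1; its RNA row joins near-identical copies and is not read here. Of 26 KLF and SP genes 2 had one: Sp4 (23.3-fold and 34.7-fold), not called, and Klf16 (14.5-fold and 22.2-fold), at 12.3 FPKM in J2E-KLF3-ER and 23.4 FPKM in J2E in the authors' deposited table (-0.92, q = 0.00408). Of 20 genes of KLF3 corepressor complexes 4 had one, Pias1, Cdyl, Ctbp2 and Rcor3, with Pias1 the strongest at 27.4-fold KLF3 and 12.2-fold KLF1, and the authors' deposited table called 0 of the 4 at q below 0.05 and 0 at an unadjusted p below 0.05.

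Immediate early genes held 4 shared sites among 28 genes, at Btg2, Zfp36l2, Atf3 and Junb; of the 3 tested, Btg2 and Junb were lower, and over the whole list the authors' deposited table called 8 of 22 tested genes lower, most of them without a shared site. Junb, an AP-1 subunit gene, stood at 33.7 FPKM in J2E-KLF3-ER and 65.0 FPKM in J2E in the authors' deposited table (-0.95, q = 0.00408). Apoptosis genes held 4 of 25 (Pim1, Casp9 and Diablo among them), with 0 called in the authors' deposited table and 2 lower at an unadjusted p below 0.05; Pim1, with 69.7-fold KLF1, stood there at 3.29 FPKM in J2E-KLF3-ER and 6.28 FPKM in J2E (-0.93, q = 0.15). G1/S genes held 3 of 37 (Cdk4, E2f1 and Cdk2), autophagy genes 3 of 28 (Atg4d, Bnip3 and Ulk2), erythropoietin receptor signalling 1 of 21 (Sh2b3, an inhibitory adaptor), and chromatin regulators 6 of 61, led by Brpf1, Mll1 and Brd2, all without a call in the authors' deposited table. At an unadjusted p below 0.05 that authors' deposited table had 0 of the 3 G1/S genes, 0 of the 3 autophagy genes, Sh2b3 (lower) and 1 of the 6 chromatin genes (lower). Ubiquitin-conjugating enzymes held 3 of 37, of which Ube2l6 was lower, at 15.6 FPKM in J2E-KLF3-ER and 28.5 FPKM in J2E in the authors' deposited table (-0.87, q = 0.0213).

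Large housekeeping families held these numbers. Cytosolic ribosomal protein genes held 4 among 80 (Rps23, Rpl31 and Rps19 among them), mitochondrial ribosomal protein genes 2 among 76 (Mrps18b and Mrps33), genes named Zfp 10 among 357, and the 48 proteasome and 47 spliceosome genes 0, although 7 and 8 of these last had a KLF3 promoter peak. None of the 21 marker genes of other blood cells had one. The lists are small and were not tested.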

How the data were processed

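Newly made RNA and chromatin of mouse erythroid lines were analysed from 3 deposited tables covering 10 samples. Per the submitters' processing notes MACS 1.4.2, MACS2, TopHat2 2.0.10 and the mm9 build were used, with settings not given in the sources used here. The authors deposited 1 peak list per factor, each from 1 library of pooled replicates, with an enrichment ratio (fold) per peak, a summit, a class and the nearest start. Per the file headers, the RNA table holds 1 pooled FPKM value per line, a log2 fold change (J2E-KLF3-ER over J2E), a p-value and a q-value. Read totals are not in the tables, so depth is unknown. How the authors' q-values take in the spread between libraries is not given in the sources used here. For J2E any such spread may be technical in part, and it also holds a difference of treatment, as the third library had vehicle. For J2E-KLF3-ER it lies between clones A, C and E. As values per sample were not given, calls are the authors' own at q below 0.05, as the design set for that case. Columns of per-sample values left unused number 0.

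Peaks were joined when they shared at least 1 bp; with several KLF1 peaks, the nearest summit was taken. A negative position is upstream of the gene's start; the authors' distance led to within 5 bp of the RNA table's gene start for 91.2% of KLF3 promoter peaks. In the KLF1 list 13 gene entries turned into dates were read back as gene symbols. No genome was used here, so sequences are RefSeq promoter windows, matched by symbol (644 genes) or synonym (46), and no coordinate was converted between builds. Intervals are exact binomial (Clopper-Pearson) and cover counting error only. Named genes are the 10 shared sites highest for each factor, up to 12 called genes each way by size of change at 1 FPKM or more in both lines, and up to 5 genes per list by KLF3 enrichment; those named as examples among the other lower genes were chosen after their values were seen. Some list members are not reported here. The sites, lists and rules were chosen with earlier results of these data known. The overlap, summit and motif functions were tested on simulated data. Calculations used Python 3.11.15, pandas 2.3.3, NumPy 2.4.6, SciPy 1.17.1 and matplotlib 3.10.9.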

Additional observations from a re-analysis of the deposited data

How the results depend on the processing

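No paired analysis was possible because the deposited values are pooled over libraries, and for the same reason no library, including the vehicle-treated J2E library, could be left out. Windows of peak sequence by coordinate were not run, as no genome was used. Of 81 alternative values for the main results, 62 kept their direction and stayed within the interval of the value reported or within 1.5 times the count. With only peaks of at least 10-fold in both lists the sites numbered 305, the median summit distance was 20 bp, the median enrichments were 16.1 for KLF3 and 17.8 for KLF1, and the genes marked up in K1vsK1ER made 19.8%. With summits within 100 bp the median distance was 22 bp and the KLF3 median 11.5. The KLF3 median was 11.2 with distinct intervals counted once and 11.2 at 5-fold or more, and 9.97 with any class within 1000 bp of a start, where the distance to the start was 128 bp. By the KLF1 summit that distance was 132 bp. The share called lower was 2.68% at a q-value of 0.01 and 6.63% at 0.1, against 1.15% and 2.87% of all tested genes. The median log2 fold change was 0.014 on chromosomes 1 and 10 to 19, which turns its sign, and -0.18 on chromosomes 2 to 9 and X; the cause was not tested. CCNCNCCC was in 92.3% of windows that hold the summit, in 92.6% of genes by any window and in 77.2% within 50 bases of the summit. The motif alternatives, the KLF1 summit and those on K1vsK1ER were chosen after seeing the data. A pseudocount of 1 moved 6 of the 36 named changes by over 0.1, most at Mid1ip1, to -1.48.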
